A study of Homo sapiens with 18 samples.

Results

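The genes described here are 54 that build and run the mitotic spindle, attach and separate chromosomes, and divide the cell. They were taken by gene symbol from a list of mitotic genes known as targets of p53 through DREAM, and all 54 were found among the 60622 genes of the count tables. By role, they comprise 7 genes for entry into mitosis, 6 mitotic kinases, 4 members of the chromosomal passenger complex, 5 genes of the spindle checkpoint and anaphase, 8 of the kinetochore and centromere, 6 of condensin with topoisomerase, 10 spindle motors and assembly factors, and 8 of cytokinesis.

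RNA was sequenced from H1299, a human non-small-cell lung carcinoma line that makes no p53 protein of its own. The fusion studied is wild-type p53-FKBP12F36V-HA, under doxycycline control. AceTAG molecules link the FKBP12F36V tag to an acetyltransferase: AceTAGp300/CBP-1 (called the p300/CBP compound below) to p300 or CBP, and AceTAGPCAF/GCN5-4 (the PCAF/GCN5 compound) to PCAF or GCN5. The 6 groups, of 3 libraries each, cover both states, induced and non-induced, and within each state 24 h of DMSO, of the PCAF/GCN5 compound or of the p300/CBP compound. The titles of the libraries called induced name the p53 fusion, and the titles of those called non-induced name H1299 alone. The sample descriptions mark the former as IND and the latter as NOIND. Whether the non-induced cells carry the fusion uninduced or are the parental line, and whether they received doxycycline, is not stated further. In the comparisons named induction, p53 and any other difference between such lines therefore cannot be told apart. The labels give no doses, so the compounds are compared as they were applied. Nor is it stated if replicates come from separate cultures or if the line is 1 clone, and every p-value therefore measures the spread between these samples, which may be technical.

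Most of these genes are transcribed in waves, low in early interphase and high from late S phase into mitosis. The MuvB core complex sits at a short promoter element named CHR (cell cycle genes homology region). In resting or arrested cells it joins pocket proteins and E2F4 as the repressive DREAM complex, and in cycling cells it joins B-MYB and FOXM1 to switch the same promoters on. NF-Y, which binds CCAAT boxes, contributes activation at many of them. The arrest gene CDKN1A, which encodes p21, is the usual link from p53 to DREAM, since p21 inhibits the kinases that take the pocket proteins off MuvB.

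Promoter sequences are shown because the members moved together across the groups and because the promoter element is the textbook address of DREAM. RefSeq promoters on GRCh38.p14, running from 250 bases before to 50 bases after a start, were given for 47 of the 54 members, and the first start was used for the 9 members with several. TPX2, TTK, BIRC5, PKMYT1, UBE2C, AURKA and RACGAP1 were not matched. Each stretch below runs 5′ to 3′ on the plus strand over the 130 bases that end just before the start. Capitals mark CHR-type letters (TTTGAA or TTCGAA, either strand) and CCAAT boxes (CCAAT or ATTGG). CCNB2 (chr15:59105016-59105145), PLK1 (chr16:23678759-23678888), KIF23 (chr15:69414219-69414348) and CDCA8 (chr1:37692386-37692515) are shown as promoters with CHR-type letters. CCNB1 (chr5:69167020-69167149) and PTTG1 (chr5:160421725-160421854) are shown as promoters without them. CCNB1 and PTTG1 both hold the letters tttaaa, which were not searched for, so they lack only the spellings named.
CCNB2: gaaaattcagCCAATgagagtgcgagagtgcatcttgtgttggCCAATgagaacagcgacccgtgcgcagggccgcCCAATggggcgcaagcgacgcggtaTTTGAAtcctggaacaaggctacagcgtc
PLK1: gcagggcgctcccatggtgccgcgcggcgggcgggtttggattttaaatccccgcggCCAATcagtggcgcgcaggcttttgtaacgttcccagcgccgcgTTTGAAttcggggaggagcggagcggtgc
KIF23: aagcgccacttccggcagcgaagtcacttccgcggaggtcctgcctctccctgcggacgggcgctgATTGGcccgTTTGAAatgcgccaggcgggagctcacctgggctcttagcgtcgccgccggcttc
CDCA8: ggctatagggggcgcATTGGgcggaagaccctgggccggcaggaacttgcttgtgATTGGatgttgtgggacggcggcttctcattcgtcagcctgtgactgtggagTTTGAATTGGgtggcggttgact
CCNB1: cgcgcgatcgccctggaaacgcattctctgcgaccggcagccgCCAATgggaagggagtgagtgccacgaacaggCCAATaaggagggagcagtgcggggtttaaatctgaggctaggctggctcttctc
PTTG1: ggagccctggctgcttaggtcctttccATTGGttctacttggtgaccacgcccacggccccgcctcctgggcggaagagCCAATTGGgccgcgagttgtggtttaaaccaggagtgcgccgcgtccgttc

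In CCNB2 the CHR-type letters began 29 bases before the start, with CCAAT boxes 120, 87 and 54 bases before it. PLK1 had its CHR-type letters at the same distance of 29 bases, KIF23 at 55 bases and CDCA8 at 23 bases. In CDCA8 the CHR-type letters run into a CCAAT box on the other strand, and in PTTG1 a pair of CCAAT boxes on opposite strands overlap.

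Over the whole 300-base windows, 35 of the 47 member promoters (74.5%) held CHR-type letters, against 4539 of all 27305 promoters (16.6%) and 1133 of the 10517 promoters of genes tested on induction (10.8%). CCAAT boxes were found in 35 member promoters (74.5%), against 35.7% of all promoters, and 23 member promoters (48.9%) held more than 1 box, against 11.3%. Both kinds of match stood together in 27 member promoters (57.4%) and in 6.58% of all promoters. CHR-type letters lay within 60 bases before the start in 16 member promoters (34%) and in 2.88% of all promoters, a window chosen after the positions had been seen. These are matches of letters, not measured binding, and the list was drawn up as targets of DREAM, so its share of CHR-type letters is a description of how it was composed.

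**Figure D1:**
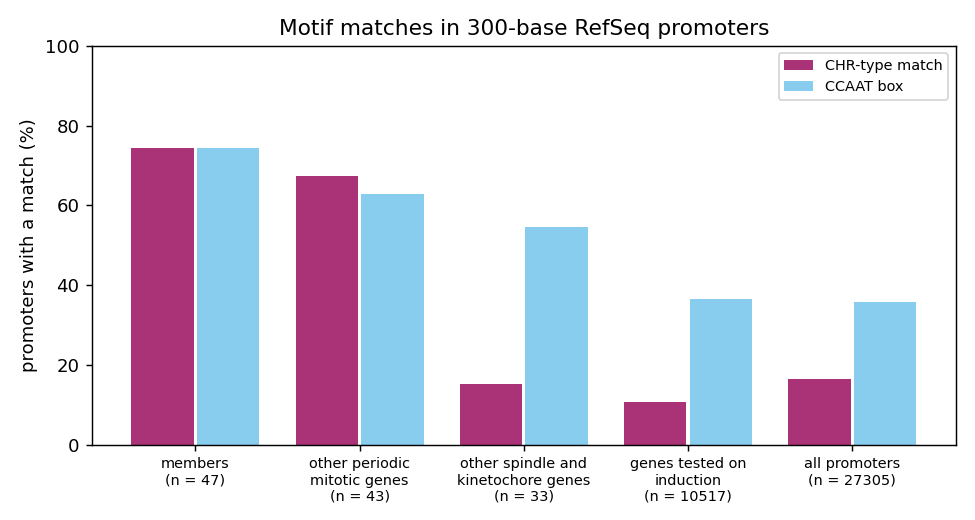
Share of 300-base RefSeq promoters (y axis, percent) with CHR-type letters (TTTGAA or TTCGAA) or a CCAAT box, for the members, 2 comparison lists, the genes tested on induction and all promoters, with the number of promoters under each. Members stand at 74.5% for both kinds of match, and all promoters at 16.6% and 35.7%.

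Total counts ran from 9.1 to 29.2 M per library, so that 3 counts, the upper limit that a count of 0 allows, amount to 0.103 to 0.331 CPM (counts scaled to a library total of 1000000). Such limits cover counting error only. The shallowest library was non-induced DMSO replicate 3. Induced DMSO replicate 3 stood apart from the other 17 libraries on the second principal component (59.1, against -13.8 to 9.5), and its share of mitochondrially encoded counts was 0.714%, against 1.84% and 2.14% in the other induced DMSO libraries. In pairwise comparisons that use it, whole-set counts of members passing a test are given with and without it. The same holds for fold changes of genes named by rule. Counts by role, counts of non-overlapping libraries and counts of the further lists are given with it only. CDKN1A rose from 89.6 ± 3.37 CPM (SD, n = 3) in non-induced to 352.0 ± 25.2 CPM in induced DMSO libraries. VIM, KRT8 and KRT18, which this carcinoma line makes, were at 68.6 CPM or more in every library. EPCAM and KRT19, defining markers of epithelium, were at or near 0 (at most 0.113 and 0.11 CPM in non-induced, 0.12 and 0.101 CPM in induced libraries). The 5 leukocyte, 4 endothelial and 5 fibroblast markers summed to at most 0.694, 0.857 and 2.76 CPM in any library.

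The mitotic genes as a set were highest in non-induced DMSO cells and lowest in induced cells given the p300/CBP compound. Their summed level was 9091.0, 9386.0 and 9187.7 CPM in the non-induced DMSO libraries. With the PCAF/GCN5 compound it was 8084.0, 8682.3 and 8337.3 CPM, and with the p300/CBP compound 7335.5, 7073.2 and 6630.2 CPM. Within non-induced cells the 3 treatments therefore did not overlap.

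Induced libraries had less in every case: 5405.3, 5689.0 and 5667.4 CPM with DMSO, 5159.4, 5379.0 and 4982.4 CPM with the PCAF/GCN5 compound, and 4015.1, 3936.4 and 3851.7 CPM with the p300/CBP compound. No range of a group's summed levels overlapped that of another group. Relative to the mean of non-induced DMSO, the groups stood at 90.7% (PCAF/GCN5 compound) and 76% (p300/CBP compound) without induction. With induction they stood at 60.6% (DMSO), 56.1% (PCAF/GCN5 compound) and 42.7% (p300/CBP compound). In RNA from whole cultures, fewer cells near mitosis and less of these RNAs per cell cannot be told apart.

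**Figure D2:**
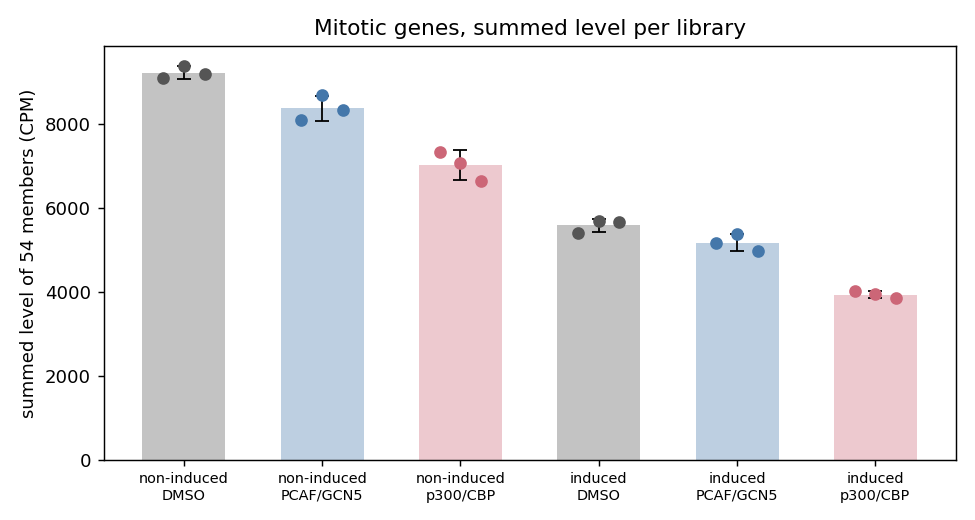
Summed level of the 54 mitotic genes (y axis, CPM) in each of 18 libraries, by group (x axis). Points are libraries, bars their mean and whiskers the SD (n = 3), and the groups descend from a mean of 9221.6 CPM in non-induced DMSO to 3934.4 CPM in induced cells with the p300/CBP compound, with no overlap between groups.

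Most single genes followed the same order. Of the 54 members, 53 had their highest group mean in non-induced DMSO, the exception being PTTG1, and 53 had their lowest in induced cells with the p300/CBP compound, the exception being PRC1. For 44 members the 6 group means stood in the full order of the summed level. In the group with the lowest sum, members kept between 23.1% (PKMYT1) and 65.9% (PTTG1) of their mean in non-induced DMSO.

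Per kilobase of annotated exon, the members with the highest level in non-induced DMSO were TPX2 (146 CPM per kb), which activates Aurora A at the spindle, the condensin subunit NCAPD2 (126 CPM per kb) and cyclin B1, CCNB1 (118 CPM per kb). CDC25C stood at 7.79 CPM per kb and PRC1, which bundles midzone microtubules, at 0.335 CPM per kb. The level of PRC1 (chr15:90966040-90995629, minus strand) rests on 5 to 61 counts per library and is uncertain, since 61.9% of its exon bases are shared with AC068831.7 on the same strand and PRC1-AS1 on the opposite strand. AC068831.7 had 41 to 153 counts per library and PRC1-AS1 had 1 to 12. Exon bases of NCAPG (33.7%), PKMYT1 (31.9%), SMC4 (22%), KIFC1 (14%) and PLK1 (12.8%) lie opposite another annotated gene, 10.2% of those of BUB1B are shared with PAK6 and a read-through gene on its own strand, and whether the counting used strand is not given in the sources used here. Coordinates are those of the files, which fell within 10 kb of the GENCODE release 29 position on GRCh38 for all 54 members.

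**Figure D3:**
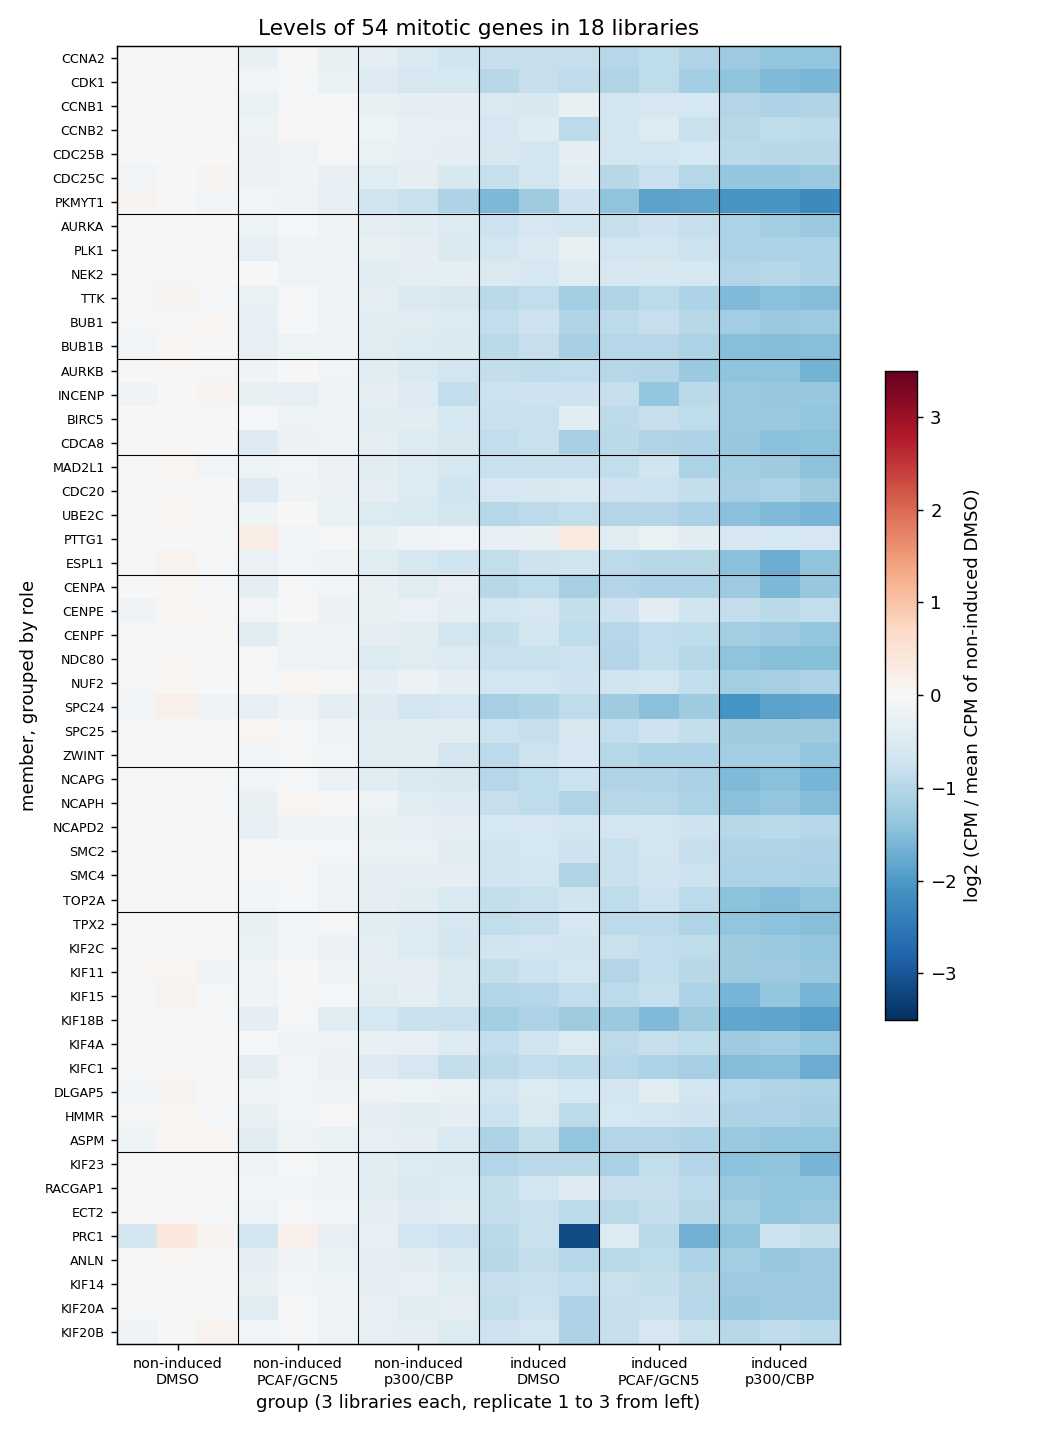
Level of each of 54 members (rows, grouped by role and divided by lines) in 18 libraries (columns, 3 per group), as log2 of CPM over the gene's mean CPM in non-induced DMSO. Group means descend from left to right without a break in 44 of the 54 rows. PKMYT1, SPC24 and KIF18B are the darkest in the last 3 columns, at 23.1%, 26.4% and 27.4% of their non-induced DMSO means.

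Nearly the whole set was lower with induction in DMSO. Of 54 members, all tested, 52 fell and 0 rose (edgeR's quasi-likelihood test, Benjamini-Hochberg adjusted p below 0.05), where 7.77% of the 15055 genes tested fell and 6.01% rose. The members' median log2 fold change was -0.80, a level of 57.3% of the non-induced one, beside 0.0093 for all genes tested. In 53 members all 3 induced libraries lay below all 3 non-induced ones, as in 16% of all genes tested. Without induced DMSO replicate 3, 54 members fell, with 17.2% of genes tested. Without non-induced DMSO replicate 3, the shallowest library, 49 fell, with 3.97% of genes tested. At an unadjusted p below 0.05 by edgeR, and at an adjusted p below 0.05 by DESeq2, 0 members were higher in this or any other comparison below. Members and the rule that chose them were drawn up with knowledge that p53 represses such genes, so these counts are no independent evidence of direction.

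Among the 7 genes for entry into mitosis, all 7 fell, with a median log2 fold change of -0.67. PKMYT1 (chr16:2968024-2980479, minus strand), the membrane-bound kinase that holds CDK1 inactive, had 55.6, 52.2 and 49.5 CPM in non-induced and 17.6, 22.3 and 31.5 CPM in induced DMSO libraries. The induced libraries were all lower, but differed among themselves by more than the non-induced ones, and replicate 3 was the highest. Its log2 fold change was -1.17 ± 0.19 (SE; edgeR adjusted p = 0.00385), and -1.45 without that replicate. CDK1 itself (chr10:60778331-60794852, plus strand), the kinase that drives entry, went from 128.6, 135.3 and 127.8 CPM to 66.6, 74.2 and 70.6 CPM, close to 54% of the non-induced mean.

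With all libraries, CCNB1, the cyclin that activates CDK1, changed least in that role. It had 296.3, 281.8 and 282.5 CPM in non-induced and 197.5, 194.4 and 241.2 CPM in induced libraries, without overlap (log2 fold change -0.47 ± 0.09, edgeR adjusted p = 0.0109). The call was lost without any one of the non-induced DMSO libraries (edgeR adjusted p = 0.0527 to 0.0634), and leaving out induced replicate 3 gave -0.59. Its promoter, shown above, holds CCAAT boxes and neither TTTGAA nor TTCGAA, and the tttaaa in it was not searched for.

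All 6 mitotic kinases fell (median log2 fold change -0.79). TTK (chr6:80003887-80042527, plus strand), also called MPS1, which starts the spindle checkpoint at unattached kinetochores, had 114.4, 127.2 and 116.5 CPM in non-induced and 61.5, 65.2 and 51.5 CPM in induced libraries. The change was -1.03 ± 0.09 on the log2 scale (edgeR adjusted p = 0.000135). PLK1, the kinase of centrosome maturation and cytokinesis, had 174.2, 181.1 and 183.5 CPM against 114.3, 123.3 and 150.6 CPM. Its libraries did not overlap, though replicate 3 was again the highest of the induced ones (log2 fold change -0.50 ± 0.10, edgeR adjusted p = 0.0141). Without induced replicate 3 the changes were -0.95 for TTK and -0.63 for PLK1. As with CCNB1, the call of PLK1 was lost without any one of the non-induced libraries (edgeR adjusted p = 0.0529 to 0.0728).

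The 4 genes of the chromosomal passenger complex, which corrects faulty attachments and later guides cytokinesis, fell together. CDCA8, encoding borealin, fell most, from 100.3, 107.2 and 106.2 CPM to 57.4, 60.7 and 47 CPM (log2 fold change -0.95 ± 0.09, edgeR adjusted p = 0.000227). BIRC5, encoding survivin, fell least, from 180.0, 178.3 and 179.2 CPM to 105.0, 104.1 and 136.2 CPM (-0.66 ± 0.11, edgeR adjusted p = 0.00416). Neither gene's groups overlapped, and induced replicate 3 was the lowest library for CDCA8 but the highest for BIRC5. Without it they stood closer, at -0.86 and -0.81. AURKB and INCENP, the kinase and the scaffold, lay between them at -0.89 ± 0.06 and -0.75 ± 0.07 (SE).

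Of 5 genes of the checkpoint, anaphase and separase, 4 fell. UBE2C, the ubiquitin-conjugating enzyme of the anaphase-promoting complex, had 98.2, 103.4 and 94.1 CPM in non-induced and 49.8, 52.4 and 54.5 CPM in induced libraries. Every induced library was far below every non-induced one, and its log2 fold change was -0.94 ± 0.07 (edgeR adjusted p = 6.05e-05), or -0.99 without induced replicate 3. PTTG1 (chr5:160421855-160428739, plus strand), encoding securin, the inhibitor of separase, did not pass the test.

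PTTG1 had 213.0, 212.6 and 211.0 CPM in non-induced libraries and 172.5, 176.9 and 268.3 CPM in induced ones. Replicates 1 and 2 were below every non-induced library and replicate 3 above them all, so the fitted log2 fold change was -0.07, with a 95% interval of -0.42 to 0.29 (edgeR adjusted p = 0.823). Without replicate 3 it was -0.32 (edgeR adjusted p = 5.32e-09). Replicate 3 is the library that stood apart from all others and had the low mitochondrial share. The next highest PTTG1 value, 253.6 CPM, came from non-induced replicate 1 with the PCAF/GCN5 compound, whose mitochondrial share of 1.32% was the second lowest. Induced replicate 3 with that compound had a similar share, 1.39%, and a PTTG1 value of 165.0 CPM, between the 159.6 and 182.2 CPM of its group. The part of these differences between libraries in the result for PTTG1 was not tested.

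Over all members, replicate 3 was the lowest of the induced DMSO libraries for 23 and the highest for 23, so it was shifted in both directions within the set. ESPL1, encoding separase itself, fell by 0.78 on the log2 scale, CDC20 by 0.59 and the checkpoint protein gene MAD2L1 by 0.81.

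All 8 kinetochore and centromere genes fell (median log2 fold change -0.78). SPC24, a subunit of the NDC80 complex that grips microtubule ends, had 37.3, 45.2 and 36.6 CPM in non-induced and 17.7, 18.9 and 21.5 CPM in induced libraries, well apart (-1.07 ± 0.12, edgeR adjusted p = 0.000516). NUF2, another subunit of that complex, had 73.6, 80.8 and 75.3 CPM against 48.2, 48.8 and 46.3 CPM (-0.71 ± 0.07, edgeR adjusted p = 0.000209). The remaining subunits NDC80 and SPC25 stood between them at -0.80 ± 0.06 and -0.73 ± 0.10 (SE). Without induced replicate 3, SPC24 and NUF2 were at -1.17 and -0.70. CENPA, the histone variant that marks centromeres, changed by -1.02 ± 0.09, which is next to SPC24 within the role.

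Condensin, which compacts chromosomes, and topoisomerase II alpha, which untangles them, showed a narrow range, with 6 of 6 genes lower. NCAPH, the kleisin subunit, went from 60.3, 63.8 and 60.3 CPM to 35.4, 33.5 and 29.9 CPM (log2 fold change -0.93 ± 0.08, edgeR adjusted p = 0.000123). NCAPD2 went from 816.1, 814.5 and 813.3 CPM to 531.9, 544.9 and 522.7 CPM (-0.64 ± 0.06, edgeR adjusted p = 0.000143). Replicates of NCAPD2 agreed closely, and the groups were far apart. NCAPH was at -0.87 and NCAPD2 at -0.63 without induced replicate 3. TOP2A (chr17:40388525-40417896, minus strand) had 425.6, 441.2 and 442.3 CPM in non-induced and 244.9, 252.7 and 269.0 CPM in induced libraries.

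All 10 spindle motors and assembly factors fell (median log2 fold change -0.77). KIF18B (chr17:44924709-44947773, minus strand), a kinesin that shortens astral microtubules, had 58, 57.5 and 54.9 CPM in non-induced and 24.8, 27 and 23.8 CPM in induced libraries. That is the largest fall among the members called on induction, at -1.20 ± 0.08 (edgeR adjusted p = 2.74e-05). DLGAP5, the spindle stabiliser also called HURP, had 131.8, 149.5 and 140.5 CPM against 88.8, 101.0 and 91.5 CPM and fell least in the role (-0.61 ± 0.07, edgeR adjusted p = 0.000901). Its libraries too were fully separated. The pair stood at -1.18 and -0.60 without induced replicate 3.

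Of 8 cytokinesis genes 7 fell. RACGAP1, the GTPase-activating subunit of centralspindlin, had 193.7, 195.0 and 189.5 CPM in non-induced and 108.9, 120.3 and 141.6 CPM in induced libraries (-0.67 ± 0.10, edgeR adjusted p = 0.00237, and -0.79 without induced replicate 3). Its motor partner KIF23 had 154.6, 150.7 and 144.4 CPM against 74.3, 78.1 and 78.2 CPM, with the smallest adjusted p of all members (-0.99 ± 0.06, edgeR adjusted p = 2.51e-05). PRC1, on few counts, had 1.18, 2.38 and 1.99 CPM against 0.964, 1.07 and 0.212 CPM. The lowest value was again induced replicate 3, and the estimate of -1.31, with a 95% interval of -2.44 to -0.19, did not pass (edgeR adjusted p = 0.119). It did pass with all 6 groups in 1 fit (-1.30, edgeR adjusted p = 0.0281), with no filter on low counts (edgeR adjusted p = 0.0023) and without induced replicate 3 (-0.87, edgeR adjusted p = 0.0385).

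Set beside the promoters, the members with CHR-type letters had a median log2 fold change on induction of -0.81 (35 genes, -1.31 to -0.50) and those without had -0.72 (12 genes, -1.07 to -0.07). The ranges share the stretch from -1.07 to -0.50. Their outer ends, -1.31 and -0.07, belong to PRC1, on few counts, and PTTG1, and neither passed the test on induction. With all libraries, CCNB1 and PTTG1, both without these letters, are the members that changed least on induction, and PLK1, which has them, is the next. Their promoters hold tttaaa, which was not searched for, as does that of PLK1. Without induced DMSO replicate 3, PTTG1, CCNB1 and PLK1 were at -0.32, -0.59 and -0.63. DLGAP5, which has CHR-type letters, was then at -0.60, so the order depends on that library. A ranking of all members without it is not given. Whether promoter letters bear on the size of the fall was not tested.

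The p300/CBP compound lowered the set further in induced cells, on top of the fall with induction. Of 54 members 46 fell and 0 rose (edgeR, adjusted p below 0.05), where 3.04% of the 15019 genes tested fell and 2.94% rose. The median log2 fold change was -0.54, a level of 68.5% of induced DMSO, beside -0.0029 for all genes. In 49 members all 3 libraries lay below all 3 DMSO libraries, as in 16.2% of all genes. In the same libraries CDKN1A stood at 2389.8 ± 59.6 CPM (SD, n = 3), against 352.0 ± 25.2 CPM in induced DMSO. Its part in the fall of the mitotic genes was not tested.

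The members not called were CCNB2, CENPA, CENPE, SMC4, ASPM, KIF20B, PTTG1 and PRC1. In 7 of these 8, all but PTTG1, the lowest induced DMSO library was replicate 3. Without that library 53 members were called, all but PRC1, where 10.9% of genes tested fell. The count also depended on the treated libraries, with 29, 28 and 21 members called when p300/CBP replicate 1, 2 or 3 was left out, and medians of -0.56, -0.56 and -0.52.

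The largest falls with this compound in induced cells were those of PKMYT1, SPC24, ESPL1, CDC25C and RACGAP1. SPC24 had 9.52, 10.9 and 11 CPM, well below its 17.7, 18.9 and 21.5 CPM in induced DMSO (log2 fold change -0.89 ± 0.12, edgeR adjusted p = 0.00298). ESPL1, the separase gene, had 33, 27.4 and 34.1 CPM against 49.9, 54.9 and 56.3 CPM (-0.78 ± 0.10, edgeR adjusted p = 0.00268). RACGAP1 had 78, 74.4 and 75.1 CPM against the 108.9 to 141.6 CPM given above (-0.72 ± 0.10, edgeR adjusted p = 0.00418). In each of these genes the treated libraries lay below all DMSO libraries. The changes without induced DMSO replicate 3 were -0.80 for SPC24, -0.73 for ESPL1 and -0.59 for RACGAP1.

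PKMYT1 had 12.5, 12.5 and 11.1 CPM against 17.6, 22.3 and 31.5 CPM (-0.99 ± 0.20, edgeR adjusted p = 0.0227). CDC25C, the phosphatase that undoes the inhibition of CDK1 which PKMYT1 imposes, had 10.2, 10.1 and 10.5 CPM against 14.9, 16.6 and 19.8 CPM (-0.75 ± 0.13, edgeR adjusted p = 0.00985). Both lost the call when any one of the treated libraries was left out (edgeR adjusted p = 0.102 to 0.136 and 0.0614 to 0.0695), with log2 fold changes of -0.93 to -1.02 and -0.74 to -0.76. Both kept it without induced DMSO replicate 3, at -0.73 and -0.62 (edgeR adjusted p = 5.26e-09 and 1.93e-06). The inhibitor and the activator of CDK1 were thus both lower, and CDK1 had 49.5, 45.1 and 43.2 CPM (-0.63 ± 0.08, edgeR adjusted p = 0.00268).

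By role, medians with the p300/CBP compound in induced cells ran from -0.43 in cytokinesis to -0.62 in the entry genes, the passenger complex and the checkpoint genes. All 6 kinases and all 4 passenger genes fell. The counts were 6 of 7 entry genes, 4 of 5 checkpoint genes, 6 of 8 kinetochore genes, 5 of 6 condensin and topoisomerase genes, 9 of 10 spindle genes and 6 of 8 cytokinesis genes. The authors' deposited table, made with DESeq2, has 51 members lower and 0 higher in this comparison, where 11.7% of its genes are lower and 7.94% higher.

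**Figure D4:**
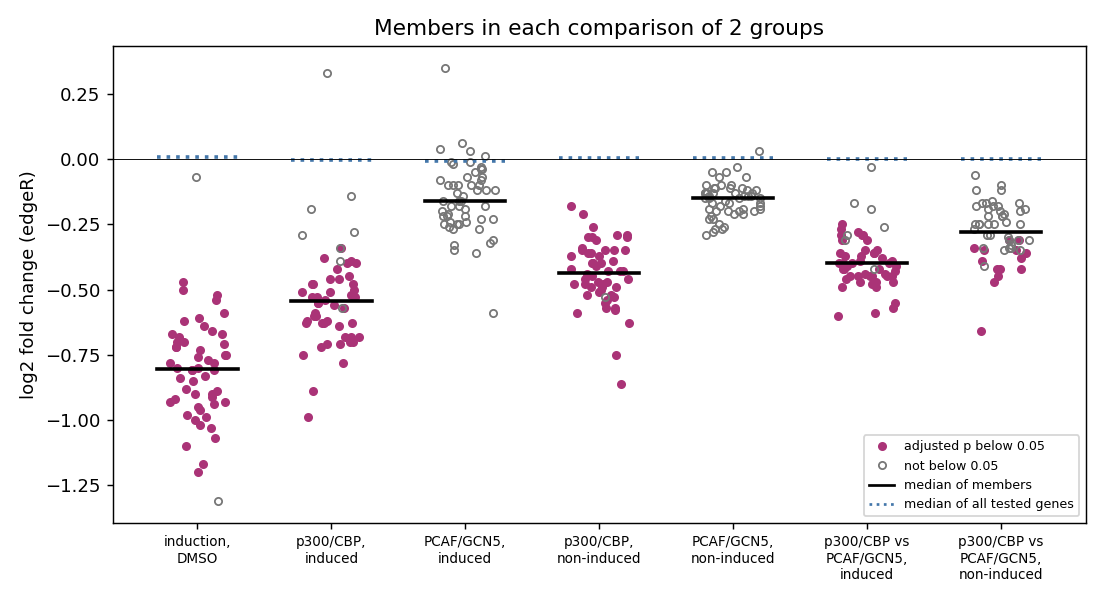
Log2 fold change (edgeR, y axis) of each member in the 7 comparisons of 2 groups (x axis); filled points have an adjusted p below 0.05, black lines are the members' medians and dotted lines the medians of all tested genes. Medians are -0.80, -0.54, -0.16, -0.43, -0.15, -0.40 and -0.28 from left to right, while those of all genes stay within 0.0093 of 0.

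The p300/CBP compound lowered the mitotic genes in non-induced cells as well. Of 54 members 53 fell and 0 rose (edgeR, adjusted p below 0.05), all but PRC1, where 6.46% of the 14943 genes tested fell and 3.43% rose. The median log2 fold change was -0.43, a level of 74% of non-induced DMSO, beside 0.0043 for all genes. In 53 members the 3 treated libraries lay below the 3 DMSO libraries, as in 13.6% of all genes. CDKN1A stood at 104.8 ± 4.66 CPM (SD, n = 3) in these libraries and 89.6 ± 3.37 CPM in DMSO.

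PKMYT1 had 32.5, 30.6 and 24.9 CPM, against 55.6, 52.2 and 49.5 CPM in DMSO, the largest fall in this comparison (log2 fold change -0.86 ± 0.09, edgeR adjusted p = 3e-05). KIF18B had 36.8, 33.1 and 32.9 CPM against 58, 57.5 and 54.9 CPM (-0.75 ± 0.07, edgeR adjusted p = 1.73e-05). KIFC1, a minus-end motor that focuses spindle poles, had 87.4, 79.6 and 67.1 CPM against 120.2, 120.5 and 118.6 CPM (-0.63 ± 0.08, edgeR adjusted p = 6.98e-05). The groups were apart in each, and in each the highest treated library was replicate 1.

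ESPL1 had 67.7, 59.3 and 55.9 CPM against 85.9, 97.7 and 87.9 CPM (-0.59 ± 0.07, edgeR adjusted p = 9.84e-05). CDK1 had 93.8, 86.4 and 85.8 CPM against 128.6, 135.3 and 127.8 CPM (-0.58 ± 0.06, edgeR adjusted p = 2.11e-05). The smallest changes among called members were those of PTTG1, at -0.18 ± 0.05, and DLGAP5, at -0.21 ± 0.06 (edgeR adjusted p = 0.0237 and 0.0222). In PTTG1 the treated libraries, at 177.9, 193.7 and 198.1 CPM, lay below the DMSO values of 211.0 to 213.0 CPM. The authors' deposited table has 53 members lower and 0 higher here, where 9% of its genes are lower and 3.88% higher.

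With the PCAF/GCN5 compound no member passed the test in either state. In induced cells 0 of 54 members fell and 0 rose (edgeR, adjusted p below 0.05), where 0.00663% of the 15078 genes tested fell and 0.338% rose. The median log2 fold change was -0.16, a level of 89.5% of induced DMSO, beside -0.0069 for all genes. At an unadjusted p below 0.05 edgeR had 19 members lower and 0 higher, where 5.68% of all genes were lower and 4.46% higher. A DESeq2 fit of the same counts called 0 as well. In 17 members all 3 treated libraries lay below all 3 DMSO libraries, as in 6.84% of all genes. Without induced DMSO replicate 3 the unadjusted count was 17 and the median -0.12. Without PCAF/GCN5 replicate 1, 2 or 3 it was 11, 10 or 1, with medians of -0.16, -0.16 and -0.11.

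The members with the lowest p there were ZWINT, CDC20, NCAPG, PKMYT1 and NDC80. ZWINT, an outer kinetochore protein through which checkpoint components are recruited, had 56.8, 53.7 and 54.2 CPM, against 60.8, 68.4 and 76.5 CPM in induced DMSO. The groups did not overlap, and the log2 fold change was -0.36, with a 95% interval of -0.59 to -0.13 (edgeR adjusted p = 0.38). It passed when all 6 groups shared 1 fit (edgeR adjusted p = 0.0337). CDC20, the activator of the anaphase-promoting complex, had 126.9, 124.4 and 117.9 CPM against 139.0, 141.5 and 143.6 CPM, also apart, with an interval of -0.40 to -0.07.

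NCAPG had 94.1, 94.8 and 89.4 CPM against 99.5, 105.8 and 117.8 CPM, with an interval of -0.45 to -0.05. NDC80 had 72.4, 81.1 and 73 CPM against 84.7, 85.5 and 86.5 CPM (-0.40 to -0.04). PKMYT1, with 19.7, 14.4 and 14.5 CPM against 17.6, 22.3 and 31.5 CPM, overlapped and had the widest interval of these, -1.07 to -0.11. It passed with no filter on low counts (edgeR adjusted p = 0.00259). Without induced DMSO replicate 3, its highest DMSO value, the log2 fold change of PKMYT1 went from -0.59 to -0.31 (edgeR adjusted p = 0.57). Without that library NCAPG was at -0.17, ZWINT at -0.26, CDC20 at -0.21 and NDC80 at -0.20. CDKN1A stood at 831.3 ± 26.7 CPM (SD, n = 3) in these libraries, above the 352.0 ± 25.2 CPM of induced DMSO (log2 fold change 1.20 ± 0.08, edgeR adjusted p = 0.00027). The authors' deposited table has 21 of 53 members with an adjusted p lower and 0 higher, where 7.15% of its genes are lower and 3.74% higher, and the settings behind that table are not given in the sources used here.

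In non-induced cells the PCAF/GCN5 compound gave a similar median of -0.15, a level of 90.2% of DMSO, beside 0.0024 for all genes. Of 54 members 0 fell and 0 rose (edgeR, adjusted p below 0.05), where 0.0132% of the 15100 genes tested fell and 0.00662% rose. At an unadjusted p below 0.05 there were 39 members lower and 0 higher in edgeR, where 3.48% of all genes were lower and 2.87% higher, and DESeq2 called 0. The unadjusted count was 19 without DMSO replicate 2 and 28 to 42 without any one of the other libraries. In 35 members all treated libraries lay below all DMSO libraries, as in 5.64% of all genes.

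INCENP, CDC20, CDCA8, ANLN and BUB1B had the lowest p. INCENP had 95.3, 92.6 and 100.6 CPM against 105.2, 114.4 and 121.7 CPM in DMSO (95% interval of the log2 fold change -0.38 to -0.12, edgeR adjusted p = 0.767). CDC20 had 153.5, 190.3 and 180.7 CPM against 209.3, 210.7 and 207.0 CPM (-0.42 to -0.12), and CDCA8 had 75.8, 91.5 and 92 CPM against 100.3, 107.2 and 106.2 CPM (-0.44 to -0.13). Both groups were apart in these genes, and replicate 1 was the lowest treated library in CDC20 and CDCA8.

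ANLN, the anillin gene of the cleavage furrow, had 310.4, 358.2 and 329.8 CPM against 372.1, 406.0 and 381.5 CPM (-0.36 to -0.10). BUB1B, encoding the checkpoint protein BUBR1, had 86.4, 94.3 and 92.9 CPM against 99.6, 110.5 and 107.3 CPM, with the same interval of -0.36 to -0.10. With no filter on low counts, CDCA8, CDC20, INCENP and ANLN were called (edgeR adjusted p = 0.00407, 0.00194, 0.0262 and 0.0154). PTTG1 went the other way in its mean, with 253.6, 199.9 and 201.5 CPM against 211.0 to 213.0 CPM, and overlapped (0.03, interval -0.12 to 0.17). The authors' deposited table has 1 member lower and 0 higher in this comparison, where 0.182% of its genes are lower and 0.0684% higher.

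Set directly against each other in induced cells, the compounds differed. With the p300/CBP compound 47 of 54 members were lower than with the PCAF/GCN5 compound and 0 were higher (edgeR, adjusted p below 0.05), where 2.25% of the 14983 genes tested were lower and 1.87% higher. The median difference was -0.40 on the log2 scale, beside 0.0004 for all genes. The uncalled members were CENPA, CENPE, INCENP, ZWINT, KIF20B, PKMYT1 and PRC1. This was 1 pair of compounds in 2 states, and p-values were adjusted over all genes tested in each. The compounds differ, by their names, in the acetyltransferases they bind, and the labels give no doses to match.

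SPC24 had 9.52, 10.9 and 11 CPM with the p300/CBP compound and 16.9, 14.3 and 16.9 CPM with the PCAF/GCN5 compound (difference -0.60 ± 0.11, edgeR adjusted p = 0.00366). KIF15, a kinesin that helps keep the spindle bipolar, had 15.7, 18.7 and 15.5 CPM against 25.7, 27.6 and 22.9 CPM (-0.59 ± 0.10, edgeR adjusted p = 0.00218). TOP2A had 162.3, 153.5 and 164.5 CPM against 234.0, 256.7 and 231.7 CPM, with the smallest adjusted p among the members (-0.57 ± 0.06, edgeR adjusted p = 1.32e-05). All 3 genes were clearly apart between the compounds.

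ESPL1 had 33, 27.4 and 34.1 CPM against 48, 46.2 and 45.9 CPM (-0.55 ± 0.08, edgeR adjusted p = 0.000715). KIF18B had 16, 15.7 and 14.9 CPM against 23, 19.5 and 23.8 CPM (-0.49 ± 0.10, edgeR adjusted p = 0.00611), and lost the call without p300/CBP replicate 3 (edgeR adjusted p = 0.0642). ZWINT, lowest in p with the PCAF/GCN5 compound against DMSO, had 50.4, 49 and 45 CPM with the p300/CBP compound against 56.8, 53.7 and 54.2 CPM. Its difference of -0.17, with a 95% interval of -0.32 to -0.03, did not pass (edgeR adjusted p = 0.193).

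In non-induced cells the compounds differed in fewer members. Of 54, 14 were lower with the p300/CBP compound and 0 higher (edgeR, adjusted p below 0.05), where 0.932% of the 15131 genes tested were lower and 0.159% higher. The median difference was -0.28, beside 0.0009 for all genes. PKMYT1 had 32.5, 30.6 and 24.9 CPM against 48.8, 47.3 and 43.1 CPM with the PCAF/GCN5 compound (-0.66 ± 0.10, edgeR adjusted p = 0.0125). KIF18B had 36.8, 33.1 and 32.9 CPM against 44.4, 55.6 and 42.7 CPM (-0.47 ± 0.10, edgeR adjusted p = 0.0358). The libraries were apart in both.

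AURKB, the kinase of the passenger complex, had 85.5, 77.8 and 70.9 CPM against 103.7, 111.8 and 104.7 CPM (-0.45 ± 0.08, edgeR adjusted p = 0.0166). CDK1 differed by -0.42 ± 0.07 and UBE2C by -0.42 ± 0.08 (edgeR adjusted p = 0.0132 and 0.0186), with no overlap between the compounds. These calls rested on few libraries: 0 members were called without replicate 2 of either compound, 1 without p300/CBP replicate 3, 5 without PCAF/GCN5 replicate 3 and 29 without PCAF/GCN5 replicate 1. DESeq2 called 29. DLGAP5, with 124.2, 124.2 and 120.7 CPM against 126.2, 132.8 and 126.9 CPM, showed the smallest difference (-0.06, 95% interval -0.20 to 0.07).

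**Figure D5:**
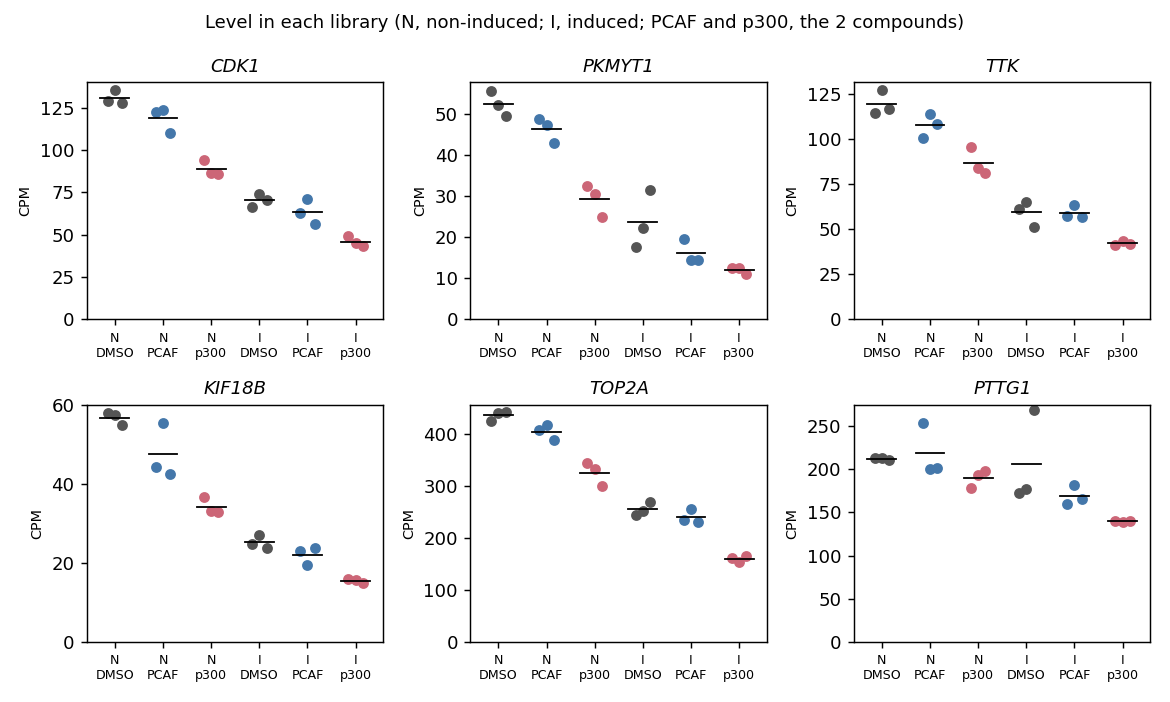
Level of CDK1, PKMYT1, TTK, KIF18B, TOP2A and PTTG1 (y axes, CPM, from 0) in every library; columns are non-induced (N) and induced (I) cells with DMSO, the PCAF/GCN5 compound or the p300/CBP compound, points are libraries and lines group means. CDK1 descends from a mean of 130.5 to 46 CPM across the columns, while PTTG1 has 1 induced DMSO library at 268.3 CPM, above all others.

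Whether a compound acted differently between the induced and non-induced states was tested by interactions, and no member passed any of them. As for induction, p53 and any other difference between the states, such as line or doxycycline, cannot be told apart in them. For the p300/CBP compound 0 of 54 members were called lower and 0 higher (edgeR, adjusted p below 0.05), where 0.192% of the 15618 genes tested were called lower and 1.09% higher. The median of the members was -0.08, beside -0.0007 for all genes, and it was -0.05 without non-induced p300/CBP replicate 1 and -0.16 without replicate 3 of that group. At an unadjusted p below 0.05 there were 5 members lower and 0 higher, where 4.89% of genes were lower and 5.58% higher, and DESeq2 called 0. The unadjusted count ranged from 2 without non-induced p300/CBP replicate 2 to 13 without replicate 3 of that group. With all libraries, the 5 were CCNB1, DLGAP5, NDC80, TOP2A and PTTG1.

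For CCNB1 the log2 fold change with the p300/CBP compound was -0.62 ± 0.09 in induced and -0.31 ± 0.05 in non-induced cells, and the interaction was -0.29, with a 95% interval of -0.52 to -0.07 (edgeR adjusted p = 0.308). For DLGAP5 the changes were -0.48 ± 0.07 and -0.21 ± 0.06 (interaction -0.25, interval -0.45 to -0.05). NDC80 and TOP2A had intervals of -0.37 to -0.04 and -0.43 to -0.03. PTTG1 had the widest of these, -0.75 to -0.01. Without induced DMSO replicate 3 the interaction moved from -0.38 to -0.14 in PTTG1 and from -0.29 to -0.19 in CCNB1, and was -0.27 in DLGAP5, -0.19 in NDC80 and -0.20 in TOP2A. These intervals lie below 0 before adjustment and did not pass over all genes.

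For the PCAF/GCN5 compound the interaction had a median of -0.00, beside -0.0094 for all genes, with 0 members called lower and 0 higher (edgeR, adjusted p below 0.05). The shares of the 15813 genes tested were 0.00632% lower and 0.0632% higher. At an unadjusted p below 0.05, 1 member was lower and 0 higher, where 4.18% of genes were lower and 3.08% higher, and DESeq2 called 0. That member was ZWINT, at -0.26 (95% interval -0.50 to -0.02, edgeR adjusted p = 0.658). The next by p were PTTG1 (-0.35, -0.76 to 0.06), ASPM (0.28, -0.05 to 0.60), PKMYT1 (-0.39, -0.89 to 0.11) and AURKB (-0.17, -0.40 to 0.07). Without induced DMSO replicate 3 the estimates were -0.16 for ZWINT, -0.10 for PTTG1, 0.16 for ASPM, -0.11 for PKMYT1 and -0.16 for AURKB, and 0 members were lower at an unadjusted p below 0.05. ASPM, a spindle pole protein, and PKMYT1 thus had estimates of opposite sign, and neither was separated from 0.

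The difference between the compounds was itself compared between the states. Here 0 members were called lower and 0 higher (edgeR, adjusted p below 0.05), where 0.0703% of the 15656 genes tested were lower and 0.255% higher. The median was -0.13, beside -0.0053 for all genes, and it was -0.05 without non-induced p300/CBP replicate 1 and -0.17 without replicate 3 of that group. At an unadjusted p below 0.05 there were 12 members lower and 0 higher, where 4.06% of genes were lower and 4.33% higher, and that count was 4 without non-induced p300/CBP replicate 1 or induced PCAF/GCN5 replicate 1 and 20 without non-induced p300/CBP replicate 3. DESeq2 called 1 member, DLGAP5 (-0.37, DESeq2 adjusted p = 0.0261).

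In DLGAP5 the compounds differed by -0.44 ± 0.07 in induced and by -0.06 ± 0.06 in non-induced cells, an interaction of -0.38 ± 0.09 (95% interval -0.57 to -0.19, edgeR adjusted p = 0.108). CCNB1 (-0.25, interval -0.42 to -0.07), TOP2A (-0.26, -0.45 to -0.07), the centrosome kinase NEK2 (-0.23, -0.41 to -0.04) and KIF20A, the motor that carries the passenger complex to the midzone (-0.29, -0.53 to -0.05), came next. The larger count of members that differed between compounds in induced cells is therefore not shown, by this test, to be a difference between the states.

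Other genes of the same programme moved on induction as the members did. Of 50 further genes with known mitotic periodicity, 49 were tested, 45 fell and 0 rose on induction, where 7.77% of all genes tested fell, with a median log2 fold change of -0.74. CKAP2L, a spindle protein, fell most, from 84.2, 92.4 and 83.3 CPM to 37.7, 44.2 and 29.2 CPM (-1.26 ± 0.13, edgeR adjusted p = 0.000328). PLK4, the kinase of centriole duplication, had 40.3, 47.3 and 42.5 CPM against 20.6, 18.6 and 17.1 CPM, and CENPU, of the inner kinetochore, had 53.6, 57.8 and 52.6 CPM against 26, 26.8 and 20.7 CPM. Without induced replicate 3 the changes were -1.13, -1.18 and -1.09. With the p300/CBP compound 36 fell in induced cells and 45 in non-induced cells, where 3.04% and 6.46% of all genes tested fell. With the PCAF/GCN5 compound the list's medians were -0.14 in induced and -0.12 in non-induced cells.

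Spindle, kinetochore and cohesin genes that are needed in mitosis but not known as strongly periodic changed less. Of 35, 34 were tested on induction, 14 fell and 0 rose, where 7.77% of all genes tested fell, with a median of -0.18. The largest falls in the list were in TUBG1, gamma-tubulin (-0.92 ± 0.18, edgeR adjusted p = 0.00994), RMI1 (-0.84 ± 0.09, edgeR adjusted p = 0.000479) and TUBGCP3 of the gamma-tubulin complex (-0.55 ± 0.09, edgeR adjusted p = 0.00392). RMI1, of the BLM helicase complex, was in the list as drawn up but is not a spindle, kinetochore or cohesin gene. TUBG1 had 70.3, 83.4 and 81.5 CPM against 48.8, 49.2 and 28.9 CPM, the lowest being induced replicate 3. Its call was lost without non-induced DMSO replicate 2 or 3 (edgeR adjusted p = 0.0617 and 0.0536). Without induced replicate 3 the 3 genes were at -0.71, -0.78 and -0.50. With the p300/CBP compound 4 of these genes fell in induced and 13 in non-induced cells, where 3.04% and 6.46% of all genes tested fell. CHR-type letters were in 5 of 33 promoters of this list (15.2%) and in 29 of 43 promoters of the periodic list (67.4%).

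Of 12 genes of DREAM, MuvB and their activators, 7 fell on induction and 0 rose, where 7.77% of all genes tested fell, with a median of -0.35. FOXM1, the transcription factor that drives the mitotic wave, had 326.6, 329.2 and 324.3 CPM against 165.2, 179.1 and 133.6 CPM (-1.06 ± 0.09, edgeR adjusted p = 0.000138). MYBL2, encoding B-MYB, had 262.4, 274.6 and 273.1 CPM against 136.0, 137.4 and 163.0 CPM (-0.92 ± 0.08, edgeR adjusted p = 0.000173). RBL1, encoding the pocket protein p107, had 59.2, 64.1 and 63.2 CPM against 29.4, 34.9 and 34.4 CPM. Without induced replicate 3 these were at -0.96, -1.02 and -0.99. Other partners did not pass, among them the pocket protein gene RBL2 at -0.06 ± 0.07, E2F4 at -0.15 ± 0.07 and E2F5 at -0.13 ± 0.08 (SE), which were picked after their values were seen. With the p300/CBP compound 1 of the 12 fell in induced cells, where 3.04% of all genes tested fell, and 6 in non-induced cells, where 6.46% fell. CHR-type letters were in 2 of the 10 promoters matched for this list (20%).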

How the data were processed

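RNA was measured by sequencing in 18 libraries. Per the labels, total RNA libraries were made with a directional kit, and the submitters' processing notes name StringTie and DESeq2. Aligner, genome build and counting settings are not given in the sources used here. The authors deposited 4 tables with raw counts per gene, DESeq2-normalised signal, log2 fold changes and p-values, per the file headers. Their log2 fold changes in induced cells are DMSO minus compound and were turned in sign. The line of 1 gene is broken in 1 table, and that gene was left out of all.

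Each comparison was fitted to the counts of the groups it involves (edgeR 4.0.16, R 4.3.3), after filterByExpr and TMM scaling, with the 2-sided quasi-likelihood F test, and Benjamini-Hochberg adjustment over all genes tested and a threshold of 0.05. The SE is the log2 fold change divided by the square root of F, and 95% intervals come from it. CPM used library totals of 9.1 to 29.2 M counts. The fitting was tested on simulated data. Alternatives were DESeq2 1.42.0, its size factors, no filter, all 6 groups in 1 fit, a replicate block and leaving out each library.

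Named were, by rule, the most and least changed member of each role on induction, members not passing there, the 5 largest calls (or, with no call, the 5 lowest p) in each other comparison, and the 3 largest calls of each further list. CDK1, KIF23 and a few other members named beside them were chosen after their values were seen. Members and lists were chosen with earlier results of these data known. The level of 1 further gene is not reported here.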

Additional observations from a re-analysis of the deposited data

How the results depend on the processing

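Counts of members called lower stayed within 1.5 times under every alternative for induction, for the p300/CBP compound in non-induced cells and for the compounds against each other in induced cells, and 0 members were called higher in any comparison under any alternative. Members lower with the p300/CBP compound in induced cells ranged from 21 to 53 when 1 library was left out. For the PCAF/GCN5 compound in induced cells, 1 member was called with no filter on low counts and 1 with all 6 groups in 1 fit. In non-induced cells 6 were called with no filter. The compounds against each other in non-induced cells gave 34 with no filter, 29 with DESeq2 and 0 to 29 when 1 library was left out. The interaction with the p300/CBP compound gave 1 member with no filter, and that with compound identity 1 with no filter and 1 with DESeq2. The cause of these shifts was not tested. Among single named genes, 836 of 882 alternatives kept the call or its absence, 32 lost the call and 14 gained it. Direction was compared only where the main or the alternative fit was called, and there 0 reversed. Correlations of same-numbered libraries' deviations from their group means ran from -0.0771 to 0.0961, so no strong shared effect of replicate number was seen. Such correlations cannot show whether same-numbered libraries were handled together. A replicate block gave 2 members lower with the PCAF/GCN5 compound and 4 for the compounds against each other, both in non-induced cells. Results for PRC1 rest on the fewest counts, 5 to 61 per library, and 61.9% of its exon bases are shared with other genes.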
